A study of Mus musculus with 6 samples.

Results

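The genes analysed here encode the proteins of elastic fibres and the lysyl oxidases that cross-link them, namely Eln, Fbn1, Mfap4, the fibulin genes Fbln1, Fbln2, Fbln5 and Efemp2, and the lysyl oxidase genes Lox, Loxl1 and Loxl2. They were chosen by name as 10 genes, each found as 1 feature through its gene number, and all 10 were measured among the 25428 features of the arrays. The arrays compared lung lobes of Nfat5(EC)-/- mice, which lack the transcription factor gene Nfat5 in endothelial cells, with those of Nfat5fl/fl animals, which carry the floxed alleles. Each genotype was represented by 3 mice, numbered 1, 3 and 4, with 1 array of 1 lung lobe per mouse. Mice of both genotypes had been exposed to hypoxia (10% oxygen) for 7 days, so that the values describe the genotype difference in the hypoxic lung and not the response to hypoxia. No source used here gave the promoter that drives Cre, the age or sex of the mice, or whether they were littermates.

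Elastic fibres give arteries, airways and alveolar septa their recoil. Their core is elastin, secreted as the soluble monomer tropoelastin by smooth muscle cells, fibroblasts and, in vessels, partly by endothelial cells, and it is laid onto a scaffold of fibrillin microfibrils. Fibulins guide tropoelastin to this scaffold and bring it together with the lysyl oxidases, copper enzymes that oxidise lysine side chains of elastin and collagens so that they form covalent cross-links. In the lung the assembly is mostly completed during alveolar development, and renewed synthesis in pulmonary arteries is a known feature of pulmonary hypertension.

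Values are log2 expression values as deposited, which ranged from 0.73 to 13.01 around an array median of 2.98. The targeted gene Nfat5 measured 4.46, 4.48 and 3.89 in Nfat5(EC)-/- lungs (mice 1, 3 and 4, the order used throughout), against 6.65, 6.58 and 6.30 in Nfat5fl/fl lungs, which checks the labels only as far as its probes lie in the deleted part. Across features, arrays correlated with r between 0.916 and 0.939 within the Nfat5(EC)-/- group, between 0.968 and 0.970 within the Nfat5fl/fl group and between 0.829 and 0.919 across the groups. The median of 107 small nucleolar RNAs, transcripts without a poly(A) tail, lay between 6.40 and 7.40 in Nfat5(EC)-/- lungs and between 4.01 and 4.20 in Nfat5fl/fl lungs, and the part of this difference in the results below was not tested. Every log2 difference is the Nfat5(EC)-/- mean less the Nfat5fl/fl mean, followed by its standard error (SE). A difference was called where limma's p, adjusted by Benjamini-Hochberg across the features, was under 0.05, and the 3 arrays per genotype limit the precision of every value.

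The elastic fibre genes divided between the directions. Expression of Eln, Fbln1, Efemp2 and Loxl1 was elevated in Nfat5(EC)-/- lungs, that of Mfap4 was reduced, and Fbn1, Fbln2, Fbln5, Lox and Loxl2 did not pass the test. Thus 5 of 10 members were called, beside 25.6% of all features, with 4 higher, beside 12.5% of all features, and 1 lower, beside 13.1%. The groups did not overlap for 6 of 10 members, beside 42.0% of all features, and of these 5 members were higher (22.0% of all features) and 1 was lower (20.0%). The median log2 difference over the members was 0.38, beside 0.04 over all features, and single members ranged from -0.86 to 1.47. The log2 of the summed level of the members was 11.01 to 11.19 in Nfat5(EC)-/- lungs and 11.33 to 11.35 in Nfat5fl/fl lungs. This sum was thus lower in all Nfat5(EC)-/- lungs, and Mfap4 was the member with the highest values. In whole lung RNA, a change in the number of cells that express a gene and a change in RNA per cell cannot be told apart.

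**Figure D1:**
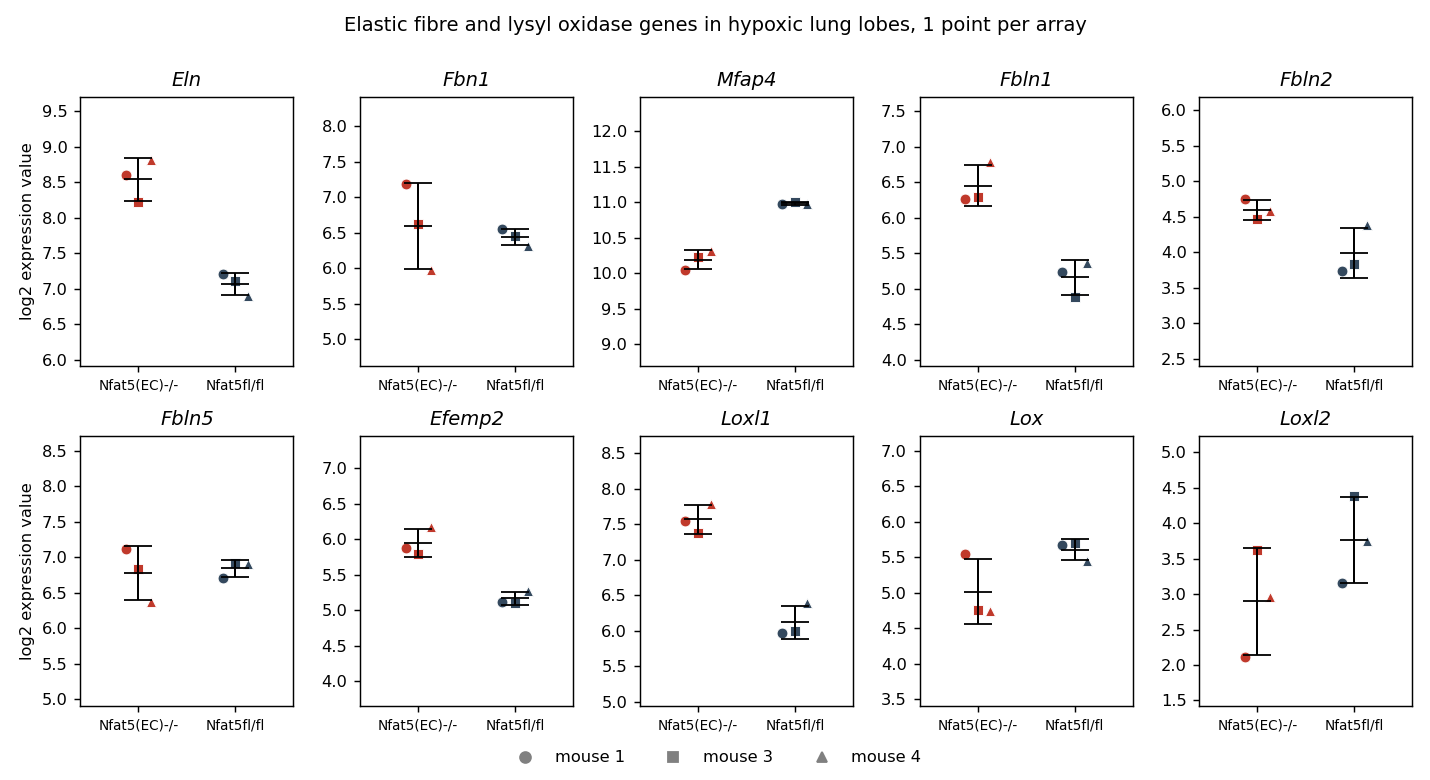
Log2 expression value of each of the 10 genes on each array (y axis, every panel spanning the same log2 range), with Nfat5(EC)-/- lungs in red on the left and Nfat5fl/fl lungs in dark blue on the right of a panel, marker shapes for mice 1, 3 and 4, and bars for mean ± SD (n = 3 each). Eln, Fbln1, Efemp2 and Loxl1 lie higher in all Nfat5(EC)-/- lungs, Mfap4 lies lower in all of them, and Fbn1, Fbln5, Lox and Loxl2 overlap between the groups.

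Eln, encoding the elastic core protein itself, had the largest log2 difference of the 10 genes. It measured 8.60, 8.22 and 8.81 in Nfat5(EC)-/- lungs, against 7.21, 7.10 and 6.91 in Nfat5fl/fl lungs. The lowest Nfat5(EC)-/- lung thus lay about 1 log2 unit above the highest Nfat5fl/fl lung. The group means were 8.54 ± 0.30 in Nfat5(EC)-/- lungs and 7.07 ± 0.15 in Nfat5fl/fl lungs (SD, n = 3 each), a 2.77-fold higher level in Nfat5(EC)-/- lungs (log2 difference 1.47, SE 0.22, limma adjusted p = 0.00292). Leaving out any single array gave differences between 1.34 and 1.64 with limma adjusted p-values of at most 0.0212.

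Fbn1 did not pass the test and Mfap4 fell, unlike Eln. Fbn1 encodes fibrillin-1, the main structural protein of the microfibril, and is the gene mutated in human Marfan syndrome. It measured 7.18, 6.63 and 5.97 in Nfat5(EC)-/- lungs, against 6.55, 6.46 and 6.32 in Nfat5fl/fl lungs. The Nfat5(EC)-/- values thus surrounded the narrow range of the Nfat5fl/fl lungs, with the lung of mouse 1 above it and that of mouse 4 below it. The log2 difference was 0.15 with a 95% confidence interval of -0.51 to 0.82 (limma adjusted p = 0.753), and it turned to -0.14 without Nfat5(EC)-/- mouse 1. Mfap4 encodes a fibrinogen-related glycoprotein that binds fibrillin-1 and tropoelastin in the fibre. It was at 10.04, 10.22 and 10.31 in Nfat5(EC)-/- lungs and at 10.98, 11.004 and 10.97 in Nfat5fl/fl lungs. All Nfat5fl/fl lungs lay above all Nfat5(EC)-/- lungs, and their SD of 0.02 was the smallest of any member in either group. Mfap4 was 1.73-fold lower in Nfat5(EC)-/- lungs (log2 difference -0.79, SE 0.18, limma adjusted p = 0.0137), but it did not pass once Nfat5fl/fl mouse 1 (limma adjusted p = 0.0544) or mouse 3 (limma adjusted p = 0.0608) was left out, with differences of -0.80 and -0.78.

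Of the fibulin genes, Fbln1 and Efemp2 rose, while Fbln2 and Fbln5 did not pass. Fibulin-1 is a component of the elastic fibre core and of basement membranes. Fbln1 measured 6.27, 6.30 and 6.79 in Nfat5(EC)-/- lungs, against 5.25, 4.89 and 5.36 in Nfat5fl/fl lungs. The groups were separated by almost a log2 unit, and the difference of 1.29 (SE 0.23, limma adjusted p = 0.00505) amounted to a 2.44-fold higher level in Nfat5(EC)-/- lungs. Without any single array its adjusted p was at most 0.0313, whereas a linear model without variance moderation gave 0.0514. Efemp2 encodes fibulin-4, which binds the lysyl oxidase proenzyme and is needed for elastin cross-linking in mouse arteries and lung. It measured 5.87, 5.79 and 6.17 in Nfat5(EC)-/- lungs and 5.12, 5.11 and 5.27 in Nfat5fl/fl lungs. The groups did not overlap, and the log2 difference of 0.78 (SE 0.19, limma adjusted p = 0.0185) corresponded to a 1.72-fold higher level in Nfat5(EC)-/- lungs. It did not pass once Nfat5fl/fl mouse 1 or 3 was left out (limma adjusted p = 0.0732 and 0.0790), at differences of 0.76 and 0.75.

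Fibulin-5 links elastin to integrins on the cell surface, and mice without it have loose skin, tortuous arteries and enlarged airspaces. Fbln5 measured 7.12, 6.83 and 6.37 in Nfat5(EC)-/- lungs, against 6.71, 6.92 and 6.91 in Nfat5fl/fl lungs. The groups overlapped, and the log2 difference of -0.07 had a 95% confidence interval of -0.59 to 0.45 (limma adjusted p = 0.862). It turned to 0.13 without Nfat5(EC)-/- mouse 4 and to 0.22 with the trend on gene span removed. Fibulin-2 shares binding partners with fibulin-5 in the vessel wall. Fbln2 measured 4.74, 4.46 and 4.59 in Nfat5(EC)-/- lungs and 3.74, 3.83 and 4.39 in Nfat5fl/fl lungs. The groups did not overlap, but Nfat5fl/fl mouse 4 came within 0.1 of the lowest Nfat5(EC)-/- lung and the log2 difference of 0.61 (SE 0.23) failed the correction (limma adjusted p = 0.0788). It passed when Nfat5fl/fl mouse 4 was left out (0.81, limma adjusted p = 0.0427) and with the span trend removed (0.87, limma adjusted p = 0.0257).

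**Figure D2:**
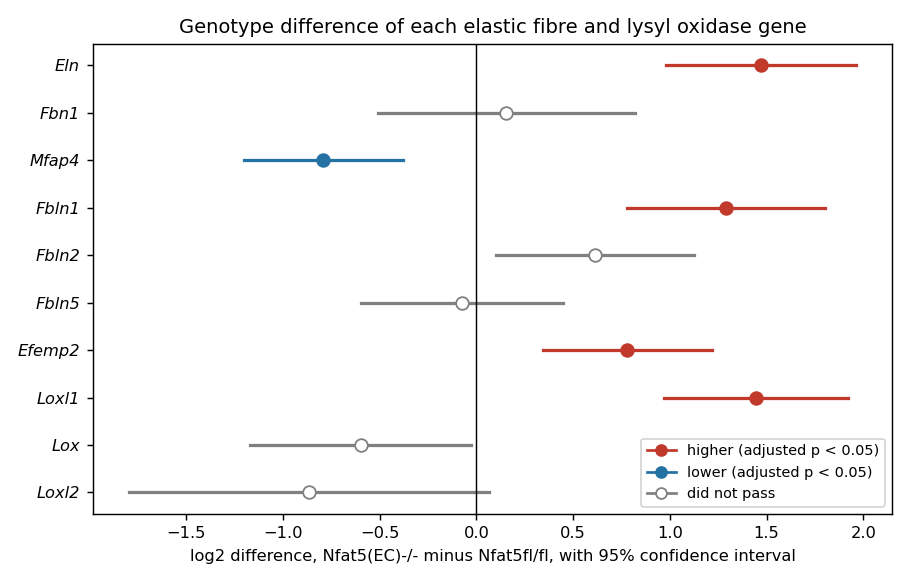
Log2 difference between the genotypes for each of the 10 genes (x axis, Nfat5(EC)-/- minus Nfat5fl/fl), with the 95% confidence interval of the limma fit without adjustment for the number of features. The intervals of Fbln2 and Lox exclude 0 although their adjusted p-values of 0.0788 and 0.118 did not pass.

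Of the lysyl oxidase genes, Loxl1 rose, whereas Lox and Loxl2 did not pass. Loxl1 encodes the family member that binds tropoelastin and fibulin-5, and mice lacking it fail to renew elastic fibres in adult tissues. It measured 7.54, 7.38 and 7.79 in Nfat5(EC)-/- lungs, against 5.97, 6.005 and 6.39 in Nfat5fl/fl lungs. Each Nfat5(EC)-/- lung lay at least about 1 log2 unit above each Nfat5fl/fl lung, and the difference of 1.45 (SE 0.21, limma adjusted p = 0.00286) amounted to a 2.73-fold higher level in Nfat5(EC)-/- lungs. Without any single array it lay between 1.34 and 1.58, with limma adjusted p-values of at most 0.0218. Lox encodes the founding enzyme of the family, without which mice die around birth from rupture of large arteries. It measured 5.54, 4.76 and 4.74 in Nfat5(EC)-/- lungs and 5.68, 5.71 and 5.45 in Nfat5fl/fl lungs. The Nfat5(EC)-/- lungs of mice 3 and 4 lay below all Nfat5fl/fl lungs, whereas that of mouse 1 lay among them. The log2 difference of -0.60 (SE 0.25) did not pass over all arrays (limma adjusted p = 0.118), but it was -0.86 and passed without Nfat5(EC)-/- mouse 1 (limma adjusted p = 0.0163). Loxl2 encodes a lysyl oxidase known to act on collagen IV of basement membranes. It measured 2.11, 3.62 and 2.95 in Nfat5(EC)-/- lungs, against 3.16, 4.38 and 3.75 in Nfat5fl/fl lungs. These values lay around the array median of 2.98, the groups overlapped, and the SDs of 0.76 in Nfat5(EC)-/- lungs and 0.61 in Nfat5fl/fl lungs were the largest of the 10 genes. The log2 difference of -0.86 (SE 0.41) did not pass (limma adjusted p = 0.161), and it was -0.47 without Nfat5(EC)-/- mouse 1 and -1.23 without Nfat5(EC)-/- mouse 3, and passed in no fit that left out 1 array.

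Differences between genes within an array are free of any factor that scales a whole array, and 3 such differences were formed from pairs chosen after the values were known, so that they are given as a description with no test. The difference Loxl1 minus Lox was 2.003, 2.62 and 3.05 log2 units in Nfat5(EC)-/- lungs, against 0.30, 0.30 and 0.95 in Nfat5fl/fl lungs, a shift of 2.04. For Eln minus Fbn1 it was 1.42, 1.59 and 2.84 in Nfat5(EC)-/- lungs and 0.66, 0.65 and 0.59 in Nfat5fl/fl lungs, a shift of 1.32. For Eln minus Mfap4 it was -1.44, -2.01 and -1.50 in Nfat5(EC)-/- lungs, against -3.77, -3.90 and -4.07 in Nfat5fl/fl lungs, a shift of 2.26. The order of the groups in Eln minus Mfap4 follows wholly from the single genes, since Eln was higher and Mfap4 lower in all Nfat5(EC)-/- lungs. In the other pairs it follows in part, since Loxl1 and Eln were higher in all of these lungs.

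The number of features that changed varied with the genomic span of a gene, from its start to its end with introns, and the members are therefore set beside genes of like span. Eln (44774 bp) and Fbln2 (60081 bp) lay in the decile of protein-coding genes with spans of 38592 to 60868 bp, of which 8.60% were called higher and 25.3% lower in Nfat5(EC)-/- lungs. Fbln1 (80346 bp), Fbln5 (72555 bp) and Loxl2 (87143 bp) lay in the decile above it, where 6.48% were higher and 32.3% lower, and Fbn1 (205892 bp) in the decile with the longest spans, where 4.15% were higher and 30.7% lower. Eln and Fbln1 thus rose among genes of a span at which calls were mostly in the other direction. Loxl1 (25490 bp) lay in a decile with 13.7% higher and 14.7% lower. For the short genes the picture was turned round: Mfap4 (3278 bp) fell, although 20.4% of the genes with spans of 2010 to 4818 bp were called higher and 3.11% lower, whereas Efemp2 (8575 bp) rose in a decile where 20.4% were higher and 7.17% lower. After the trend on span was removed from each array, the log2 differences of the called members were 1.67 for Eln, 1.59 for Fbln1, 1.49 for Loxl1, 0.58 for Efemp2 and -1.02 for Mfap4. All 5 kept their call, that of Efemp2 only narrowly (limma adjusted p = 0.0488).

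**Figure D3:**
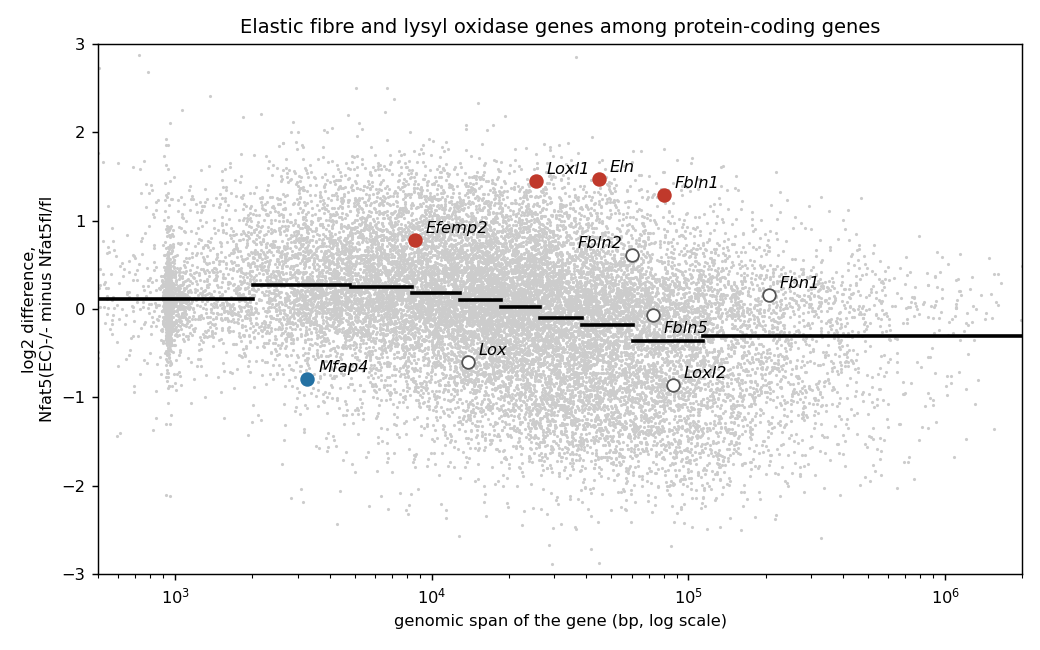
Log2 difference of 20232 protein-coding genes (grey points, y axis, Nfat5(EC)-/- minus Nfat5fl/fl) against the genomic span of the gene in bp on a log scale, with the median of each decile of genes as a black line and the 10 genes as large symbols, filled where adjusted p was under 0.05 (red higher, blue lower). The axes leave out 61 genes. Eln and Fbln1 lie far above and Mfap4 far below the medians of genes of like span.

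Beyond the 10 genes, the other proteins of the microfibril and its surroundings were assembled in a list of 18 genes. Of these, 9 rose, 2 fell and 7 did not pass, beside 25.6% of all features called, with a median log2 difference of 0.84 beside 0.04 over all features. The increases included 3 of 4 genes named for latent TGF-beta binding proteins, of which Ltbp4 is needed for elastic fibres in mouse lung. Ltbp4 was at 8.03, 7.67 and 8.32 in Nfat5(EC)-/- lungs, against 6.16, 6.40 and 6.75 in Nfat5fl/fl lungs, without overlap (log2 difference 1.57, SE 0.24, limma adjusted p = 0.00321). Ltbp2, whose protein binds fibulin-5, differed by 1.34 (SE 0.23, limma adjusted p = 0.00489). Mfap2, encoding the microfibril-associated glycoprotein MAGP1, differed by 1.18 (SE 0.20, limma adjusted p = 0.00410), and Emilin1, encoding a glycoprotein at the interface of elastin and microfibrils, by 1.40 (SE 0.24, limma adjusted p = 0.00480). The 2 genes that fell, named after their values were seen, were Mmrn1 (-1.37, limma adjusted p = 0.0412), a multimerin gene of platelets and endothelial cells, and Hmcn1 (-1.14, limma adjusted p = 0.0395), encoding the very large matrix protein hemicentin-1. Both lost their call with the span trend removed (Hmcn1 spans 431153 bp and Mmrn1 45062 bp) and without any of the Nfat5fl/fl arrays. The count of calls in this list was 3 without variance moderation.

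Of 11 genes in the list of lysyl oxidase paralogs, processing and copper supply, 0 were called higher by limma, 3 were lower and 8 did not pass, beside 25.6% of all features called, and 6 of the 11 differences were positive (median 0.16). Pcolce, Tll2 and Bmp1, whose products enhance or carry out procollagen and proenzyme cleavage, differed by 0.73, 0.61 and 0.51 and passed before adjustment only. The copper importer gene Slc31a1 likewise passed before adjustment only, in the other direction (-0.59). Under alternatives, Pcolce was called with cyclic loess and without Nfat5fl/fl mouse 4, and Tll2 and Bmp1 with the span trend removed. Tll2, Loxl4 and Slc31a1 were called without Nfat5(EC)-/- mouse 3. Postn, encoding periostin, which promotes activation of the lysyl oxidase proenzyme, was at 6.07, 5.96 and 5.73 in Nfat5(EC)-/- lungs and at 7.89, 7.79 and 7.24 in Nfat5fl/fl lungs (log2 difference -1.72, SE 0.23, limma adjusted p = 0.00236). Atp7a, the pump that delivers copper to secreted enzymes, was at 3.49, 3.88 and 1.81 in Nfat5(EC)-/- lungs, against 4.996, 4.83 and 4.60 in Nfat5fl/fl lungs (-1.75, SE 0.46, limma adjusted p = 0.0238), and the lung of Nfat5(EC)-/- mouse 4 stood far below the others of its group. Tll1, a tolloid-like protease gene of the family that cleaves the proenzyme, differed by -0.78 (limma adjusted p = 0.0326), at means of 2.30 in Nfat5(EC)-/- lungs and 3.08 in Nfat5fl/fl lungs near the array median, and its call was lost with the span trend removed (its span is 192911 bp) and absent with the filter on dim features. Without Nfat5fl/fl mouse 1 or 3, Postn was the 1 remaining call in each fit, and 6 genes passed without Nfat5(EC)-/- mouse 3.

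The fibrillar collagens, the other main substrates of lysyl oxidases, had positive differences in 9 of 9 genes, of which 6 rose and 0 fell, beside 25.6% of all features called (0.87 at the median). With all 9 differences positive, none could be called lower at any threshold. Col1a1, a chain of collagen I, differed by 1.34 (SE 0.21, limma adjusted p = 0.00322), Col5a1, a chain of the collagen V that nucleates collagen I fibrils, by 1.51 (SE 0.23, limma adjusted p = 0.00321), and Col5a3 by 1.37 (SE 0.27, limma adjusted p = 0.00719). Col2a1, of cartilage, differed by 1.21 (SE 0.26, limma adjusted p = 0.0114). Without Nfat5fl/fl mouse 3, 3 of the collagens passed.

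Of 12 genes of proteases that cut elastin, 3 rose and 1 fell (median 0.13), a share called near the 25.6% of all features. Mmp2, the gelatinase of stromal cells, differed by 0.85 (SE 0.19, limma adjusted p = 0.0116), the pancreatic-type elastase gene Cela1 by 0.74 (SE 0.18, limma adjusted p = 0.0191), the neutrophil protease gene Prtn3 by 0.89 (SE 0.24, limma adjusted p = 0.0266), and Ctss, a lysosomal elastase gene of macrophages, by -1.02 (SE 0.29, limma adjusted p = 0.0309). No protease call was left without Nfat5fl/fl mouse 1, that of Mmp2 was left without Nfat5fl/fl mouse 3, and those of Mmp2 and Cela1 without Nfat5(EC)-/- mouse 1, while Prtn3 lost its call with the span trend removed. Cela1 had means of 3.03 in Nfat5(EC)-/- lungs and 2.29 in Nfat5fl/fl lungs, at or below about the array median. Its call was absent with the filter on dim features. The Nfat5fl/fl mean of Prtn3, 2.91, also lay near the array median. Of 10 measured inhibitor genes, 1 rose and 2 fell (median -0.01), likewise near the 25.6% of all features called. Timp3, a matrix-bound inhibitor of metalloproteinases, was at 7.92, 7.88 and 7.11 in Nfat5(EC)-/- lungs, against 8.65, 8.95 and 9.05 in Nfat5fl/fl lungs (log2 difference -1.25, SE 0.26, limma adjusted p = 0.00938). Serpinb1a, an intracellular inhibitor of neutrophil proteases, differed by -1.02 (limma adjusted p = 0.0437) and Timp1 by 0.68 (limma adjusted p = 0.0460), and both calls were lost without any of the Nfat5fl/fl arrays and without Nfat5(EC)-/- mouse 1 or 3. Timp1 was lost also without Nfat5(EC)-/- mouse 4, with cyclic loess, with the variance trend and robust moderation, with array weights and with the span trend removed.

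Of 10 receptor genes, 2 rose and 3 fell, beside 25.6% of all features called (median 0.21). Itgb1, the integrin beta 1 subunit of many matrix receptors, differed by -1.38 (SE 0.25, limma adjusted p = 0.00520), Itga8, its partner in binding fibrous matrix in smooth muscle and myofibroblasts, by -1.18 (SE 0.31, limma adjusted p = 0.0241), and Itgav, the alpha v subunit, by -0.81 (SE 0.23, limma adjusted p = 0.0307). Itga8 (195354 bp) and Itgav (84615 bp) lost their call with the span trend removed, and Itgb1 kept it. Neu1, the sialidase of the elastin receptor complex, was at 5.49, 5.40 and 5.27 in Nfat5(EC)-/- lungs, against 4.26, 3.92 and 4.69 in Nfat5fl/fl lungs, without overlap (log2 difference 1.095, SE 0.23, limma adjusted p = 0.0100), and the other gene that rose was Itgb5, an integrin beta subunit gene named after its values were seen (0.78, limma adjusted p = 0.0462). Without Nfat5fl/fl mouse 1 the calls were those of Itgb1 and Neu1, without Nfat5fl/fl mouse 3 that of Itgb1, and without Nfat5(EC)-/- mouse 4 those of Itgb1, Neu1 and Itga8.

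**Figure D4:**
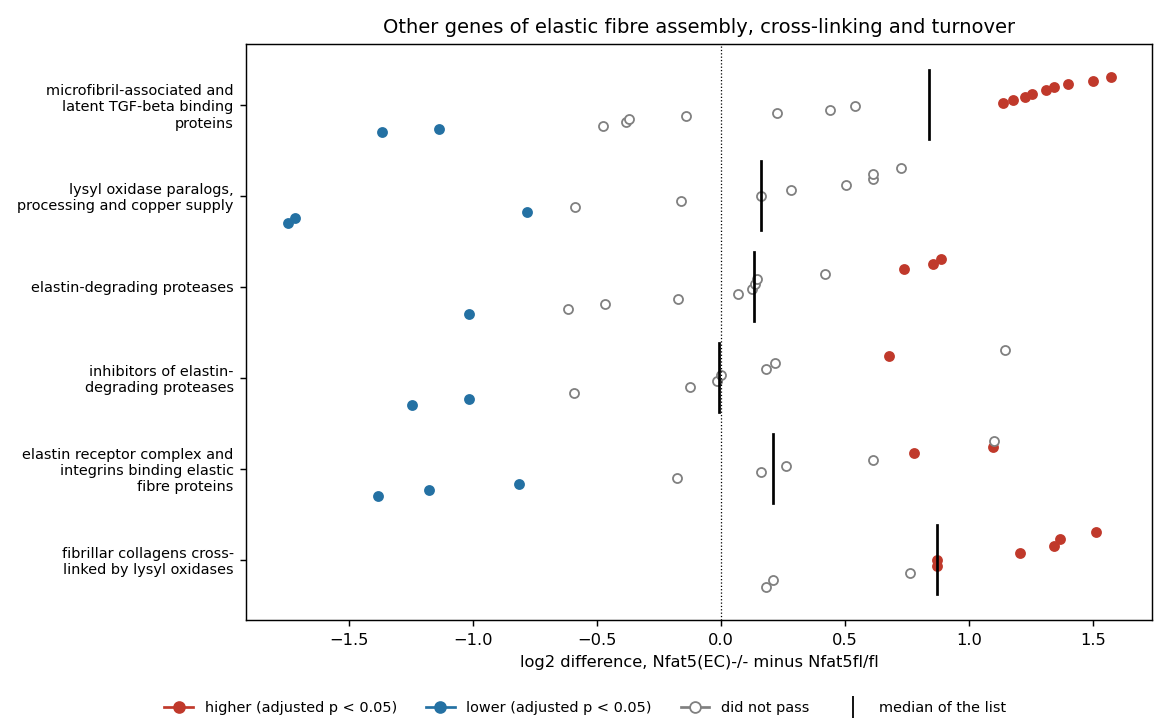
Log2 difference (x axis, Nfat5(EC)-/- minus Nfat5fl/fl) of each measured gene in 6 lists of elastic fibre assembly, cross-linking and turnover, with 1 point per gene, filled where adjusted p was under 0.05 and open otherwise, and a black line at the median of each list. The microfibril and fibrillar collagen lists have medians of 0.84 and 0.87, whereas the other 4 lists lie between -0.01 and 0.21.

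Elastic fibre genes are expressed by several mesenchymal cell types, whose markers are given for comparison as counts and as the log2 of the summed level of each list. The counts stand beside 25.6% of all features called, 12.5% higher and 13.1% lower, and no list was tested against these shares. Of 9 smooth muscle markers, 0 were called by limma, with Des (0.97, limma adjusted p = 0.0742) as the 1 marker that passed before adjustment, and their summed level was 9.18 to 9.33 in Nfat5(EC)-/- lungs and 8.77 to 9.29 in Nfat5fl/fl lungs. Of 11 fibroblast markers, 2 rose (Pi16 and Col13a1, by 1.18 and 1.35) and 1 fell (Dcn, the decorin gene, at -1.36), with summed levels of 10.34 to 10.53 in Nfat5(EC)-/- lungs and 10.79 to 10.81 in Nfat5fl/fl lungs. Pericyte markers gave 3 higher (Notch3, Cspg4 and Cox4i2) and 1 lower (Postn, which is also in the lysyl oxidase list) of 7, with Notch3 at 1.69 and a summed level of 8.51 to 9.05 in Nfat5(EC)-/- lungs, against 8.67 to 8.80 in Nfat5fl/fl lungs. Mesothelial markers gave 2 higher (Msln and Krt19, by 1.55 and 1.19) and 0 lower of 6, with summed levels of 8.14 to 8.41 in Nfat5(EC)-/- lungs and 7.26 to 7.58 in Nfat5fl/fl lungs. Cartilage markers gave 5 higher (Col2a1, which is also in the collagen list, Matn3, Chad, Col9a2 and Ucma) and 0 lower of 11, with Chad at 1.14 and summed levels of 7.17 to 7.77 in Nfat5(EC)-/- lungs, against 6.49 to 6.66 in Nfat5fl/fl lungs. Cardiac muscle markers, present in mouse pulmonary veins, gave 3 higher (Myl4, Myh6 and Actc1) and 1 lower (Ryr2) of 8, with summed levels of 8.25 to 9.06 in Nfat5(EC)-/- lungs and 7.80 to 8.14 in Nfat5fl/fl lungs. Mesothelial, cartilage and cardiac summed levels were thus higher in all Nfat5(EC)-/- lungs, as Eln was, fibroblast levels were lower in all of them, smooth muscle and pericyte levels overlapped, and the part of these cells in the differences of the elastic fibre genes was not tested. The deposited log2 values have no zero, so that no marker can be called absent.

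Endothelial markers, 10 in number, gave 3 higher (Egfl7, Cldn5 and Eng) and 5 lower (Cdh5, Tek, Pecam1, Erg and Emcn), with summed levels of 10.99 to 11.14 in Nfat5(EC)-/- lungs and 11.64 to 11.92 in Nfat5fl/fl lungs, and Cdh5 and Tek at -1.52 and -2.01. The 3 higher genes span 1416 to 36075 bp and the 5 lower ones 42892 to 227432 bp. The part of gene span in this split was not tested. Epithelial markers, which check the tissue, had summed levels of 13.27 to 13.91 in Nfat5(EC)-/- lungs and 13.91 to 14.04 in Nfat5fl/fl lungs. These were the highest summed levels of the cell type lists, with 2 of 10 markers higher (Foxj1 and Aqp5) and 2 lower (Sftpa1 and Lamp3). Of 7 adipocyte markers, 0 rose and 1 fell, Ucp1 at -2.33. The counts of these lists likewise stand beside 25.6% of all features called.

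Promoter sequences from RefSeq (GRCm38.p6) were used for 5 of the 10 genes, Fbn1, Fbln1, Fbln2, Fbln5 and Efemp2. They are windows from 250 bases before to 50 bases after an annotated start. Member windows on 1 chromosome were left out before the count, and the reason for this step was not recorded. Eln, Lox, Loxl1, Loxl2 and Mfap4 had no window among those kept. Whether any of these genes lost a window at this step was not recorded either. The windows were searched on both strands for TGGAAA, the letters with which the tonicity-responsive element bound by NFAT5 begins, since NFAT5 is the factor removed in these mice. Of all 32851 windows in the table, 21.4% held it. Of the 9 windows kept for the 5 genes, 4 held it, 1 each of Fbn1, Fbln2, Fbln5 and Efemp2. Because member windows were left out, this count is not compared with the share of all windows. The windows below are those of the called genes Fbln1 and Efemp2 that start first in the table and those of Fbln5 and Fbn1, which were not called, that hold the letters. They are written 5′ to 3′ on the strand of the gene, with each TGGAAA in capitals.
Fbln1, chr15:85205699-85205998, plus strand: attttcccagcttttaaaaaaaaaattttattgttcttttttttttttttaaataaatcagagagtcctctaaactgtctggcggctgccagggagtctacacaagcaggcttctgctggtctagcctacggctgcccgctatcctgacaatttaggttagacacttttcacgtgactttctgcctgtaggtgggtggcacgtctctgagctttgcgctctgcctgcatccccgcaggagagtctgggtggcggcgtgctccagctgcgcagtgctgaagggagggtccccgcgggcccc
Efemp2, chr19:5473696-5473995, plus strand: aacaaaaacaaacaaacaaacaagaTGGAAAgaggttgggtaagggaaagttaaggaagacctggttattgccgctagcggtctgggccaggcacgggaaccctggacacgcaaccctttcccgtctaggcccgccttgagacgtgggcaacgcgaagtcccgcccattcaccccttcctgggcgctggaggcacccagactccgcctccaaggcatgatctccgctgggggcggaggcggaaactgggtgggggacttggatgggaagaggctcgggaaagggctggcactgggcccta
Fbln5, chr12:101818435-101818734, minus strand: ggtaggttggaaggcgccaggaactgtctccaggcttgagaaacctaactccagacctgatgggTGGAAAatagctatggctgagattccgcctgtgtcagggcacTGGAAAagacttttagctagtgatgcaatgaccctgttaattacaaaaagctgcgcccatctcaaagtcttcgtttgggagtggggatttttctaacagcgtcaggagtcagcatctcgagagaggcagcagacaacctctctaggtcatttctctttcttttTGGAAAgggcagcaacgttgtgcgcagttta
Fbn1, chr2:125506389-125506688, minus strand: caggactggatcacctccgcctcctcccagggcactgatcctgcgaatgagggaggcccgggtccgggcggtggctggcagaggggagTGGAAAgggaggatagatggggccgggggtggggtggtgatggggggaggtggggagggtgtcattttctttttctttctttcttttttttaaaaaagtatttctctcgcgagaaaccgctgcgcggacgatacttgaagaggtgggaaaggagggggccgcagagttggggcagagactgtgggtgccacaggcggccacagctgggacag

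The letters occurred 0 times in either window of Fbln1, which rose by 1.29, once in the first of 3 windows of Efemp2, which rose by 0.78, 3 times in the downstream start window of Fbln5, whose difference was -0.07, and 1 time each in the windows of Fbn1 (0.15) and Fbln2 (0.61). A match is a run of letters and not a site shown to be bound, and windows of this length hold none of the more distant elements of a gene.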

How the data were processed

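Biotin-labelled cRNA of total RNA from lung lobes was hybridised to Affymetrix arrays, 1 per mouse. The deposited values are on a log2 scale, as their range shows. The submitters' processing notes name RMA, a method that corrects background, equalises distributions between arrays and combines probes into 1 value per feature. No source used here gave its version, the definition of probe sets or the build. The values carry no detection call, and a change in total RNA per lung would not be visible. Feature identifiers are gene numbers, and 24705 features were named by the platform table, in which 8 of the 10 members are listed. Fbn1 and Efemp2 were named, among 564 further features, through the gene number in the RefSeq table (GRCm38.p6), which also gave gene spans, and 159 features stayed unnamed.

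All 6 arrays were fitted for every feature with limma 3.58.1 (lmFit, eBayes) in R 4.3.3, 2-sided, without covariate or filter, with Benjamini-Hochberg adjustment over 25428 features. On data simulated for Nfat5(EC)-/- against Nfat5fl/fl over 25428 features, 200 were changed in each of 5 runs. In these, 17.2% of changes of 1 log2 unit and 75.8% of changes of 2 log2 units were recovered, and 3.23% of calls were false. The arrays themselves gave 6510 calls, many more than the features changed in a run. The simulated rates therefore need not hold for the calls made here. Alternatives were a block for the mouse number, a filter on features below the median mean, quantile, cyclic loess and median normalization, a variance trend with robust moderation, no moderation, array weights, protein-coding features only, removal of the lowess trend on gene span, and leaving out each array. The members and lists were chosen with earlier results of these data known. All members and Nfat5 are named, with up to 4 genes of smallest p per pathway list and up to 3 per cell type list. Mmrn1, Hmcn1, Itgb5 and the other called markers of the cell type lists were named after their values were seen. The same holds for Pcolce, Tll2, Bmp1, Slc31a1, Loxl4 and Itga5, which were not called in the main fit. Serpina1a was not measured. Plots were made in Python 3.11.15 (matplotlib 3.10.9).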

Additional observations from a re-analysis of the deposited data

How the results depend on the processing

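Eln and Loxl1 were called higher under every alternative run, and Fbln1 under every one except the fit without variance moderation (limma adjusted p = 0.0514). Quantile normalization and median centring could change little, since the deposited arrays already shared their median, lowest and highest values. These alternatives are therefore no separate check. The count of members called higher lay between 3 and 5 and that of members called lower between 0 and 2 when single arrays were left out. With the mouse number as a block, 2 members were lower, since Loxl2 (-0.86, limma adjusted p = 0.0219) joined Mfap4, and the block changed no other member's call. In the lists, the block removed the calls of Ctss, the 1 protease that was lower, and of Timp1, and added Pcolce and Itga5. Same-numbered mice did not deviate together (r = 0.065, -0.010 and 0.007 for mice 1, 3 and 4), so that the numbers are not taken as pairs. Without variance moderation, 1984 features passed in all, 3 of the microfibril list, 1 of the lysyl oxidase processing list, 2 of the proteases, 0 of the inhibitors, 0 of the receptors and 2 of the collagens. Without single arrays the counts lay between 3017 and 6365 for all features, 8 and 10 for the microfibril list, 1 and 6 for lysyl oxidase processing, 0 and 4 for proteases, 1 and 3 for inhibitors, 1 and 5 for receptors and 3 and 6 for collagens, and the lowest count over all features was that without Nfat5fl/fl mouse 3, with 3273 without Nfat5fl/fl mouse 1. Fbn1 and Fbln5, which were not called, changed sign: Fbn1 lay between -0.14 and 0.47 without single arrays, and Fbln5 between -0.245 and 0.13, with 0.22 with the span trend removed. The cause of these changes was not tested. The arrays give no detection call, and the values of Loxl2 lay around the array median.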

Other observations

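Among the Nfat5(EC)-/- lungs, the members fell into different orders. Fbn1, Fbln2, Fbln5 and Lox were highest in mouse 1, with Fbn1 at 7.18 there, against 6.63 and 5.97 in mice 3 and 4, and Lox at 5.54, against 4.76 and 4.74. Eln, Fbln1, Efemp2, Loxl1 and Mfap4 were highest in mouse 4, with Fbln1 at 6.79 there, against 6.27 and 6.30 in mice 1 and 3. Loxl2 was highest in mouse 3 and lowest in mouse 1. The 4 genes of the first kind hold none of the 5 called members, and the 5 of the second kind are the called ones. These kinds were formed after the values were seen, from the same values as the calls. The share of all features highest in mouse 4 was not counted, so that no link of calls to a mouse is drawn. It follows from this order alone that mouse 4 was the Nfat5(EC)-/- lung nearest to the Nfat5fl/fl lungs for Mfap4, called lower. For the 4 genes called higher it was likewise the farthest. The SD was larger in Nfat5(EC)-/- than in Nfat5fl/fl lungs for 8 of 10 members. The share over all features was not counted. Across features, arrays correlated less within the Nfat5(EC)-/- group (0.916 to 0.939) than within the Nfat5fl/fl group (0.968 to 0.970). The median of the small nucleolar RNAs was 7.40 in Nfat5(EC)-/- mouse 1 and 6.44 and 6.40 in Nfat5(EC)-/- mice 3 and 4. This order was seen in 3 arrays and was not tested.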
